A study of Drosophila melanogaster with 2 samples.

Results

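The vacuolar ATPase (V-ATPase) is a rotary proton pump that acidifies lysosomes, endosomes, the Golgi and synaptic vesicles, and in some epithelia it pumps protons across the cell surface. Its cytosolic V1 sector hydrolyses ATP and turns a rotor, and its membrane V0 sector carries protons. In Drosophila melanogaster many of its subunits are encoded by several genes, of which usually a single paralog is used in nearly all tissues and the others are limited to organs such as the testis, the gut or the nervous system. Dense V-ATPase is a known feature of acid-secreting cells of the midgut and of the Malpighian tubules, the fly's kidney.

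The V-ATPase genes were taken as all genes of the deposited gene table whose symbols begin with Vha. This gave 32 of 17039 genes. Symbols, not function, chose them: ATP6AP2, an accessory subunit of the pump, does not carry the prefix and is given below among the assembly genes. The 32 genes fall into 13 subunit families, 8 of V1 and 5 of V0, plus the accessory subunit gene VhaAC45. From background knowledge of fly tissues, 14 of them were taken as the ubiquitous set, 1 for each family and VhaAC45, and the remaining 18 as the other paralogs.

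The study profiled nuclei of Drosophila melanogaster embryos aged 0 to 24 h; the labels name no strain, genotype, treatment or number of embryos. For scAIR, a method that reads RNA, accessible chromatin and chromatin contacts, the fixed nuclei were digested with restriction enzymes and religated before droplet barcoding on the 10x Genomics platform. There was 1 RNA library and 1 library of accessibility and contacts, and the second was not analysed here. With 1 RNA library and no second condition, no difference had a replicate check and none was tested.

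The RNA library held 2233526 unique molecular identifiers (UMIs, counts of captured RNA molecules) in 318 nuclei, with 279 to 123309 UMIs and a median of 2969 in a nucleus. Clustering, from which the V-ATPase genes were left out, gave 11 clusters, numbered from the largest. Marker genes named 5 classes holding 136 nuclei: neuron-like (42 nuclei), epidermis-like (50), somatic muscle-like (32), salivary gland-like (7) and amnioserosa-like (5). The marker levels that follow belong to genes of the naming lists, so they describe the naming and are no independent check of it. nSyb reached 475 counts per 1000000 UMIs (CPM) in neuron-like nuclei against 65.7 in all other nuclei. Mhc was at 6916 against 461 CPM in somatic muscle-like nuclei, and Lcp65Ac at 1426 against 105 CPM in epidermis-like nuclei. The epidermis-like class joins clusters 5 and 8, which were named by largely different markers. Lcp65Ac was among the 9 markers of cluster 5 but not among the 11 of cluster 8, such as Osi7. Osi20 alone was in both. The other 5 unnamed clusters were used by number. Intervals in parentheses are exact 95% intervals and cover counting error only.

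V-ATPase UMIs were found in nearly all nuclei, and almost all came from the ubiquitous paralogs. The 32 genes had 11875 UMIs, 0.532% (0.522 to 0.541) of the library, and 314 of 318 nuclei had at least 1 of them. A UMI does not by itself show expression: Mhc, a muscle gene, had UMIs in 157 of 286 nuclei outside the somatic muscle-like class, and nSyb in 73 of 276 outside the neuron-like class. The part of free RNA in such counts was not tested. The ubiquitous set held 93.5% (93.1 to 94.0) of these UMIs and the 18 other paralogs 6.48% (6.04 to 6.93). V1 genes had 5616 UMIs and V0 genes 5637, so that V1 held 49.9% (49.0 to 50.8) of the UMIs of both sectors.

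Of the 32 genes, 23 had a UMI, and 21 had at least 20. Each of the 14 ubiquitous genes was among the 21, together with 7 other paralogs: Vha68-1, Vha36-3, Vha100-1, Vha100-4, Vha100-5, VhaM9.7-a and VhaM9.7-c. Vha68-3 and Vha16-3 had 1 UMI each. No UMI was found for 9 genes: Vha36-2, Vha14-2, Vha100-3, Vha16-2, Vha16-4, Vha16-5, VhaPPA1-2, VhaAC39-2 and VhaM9.7-d. For each of these a count of 0 allows a level of up to 1.34 CPM (3 counts in the library).

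The levels that follow are CPM over all nuclei summed. They are not scaled to transcript length, so they order genes by captured molecules only. In V1, the catalytic subunit A came mainly from Vha68-2 at 308 CPM (285 to 332), found in 165 nuclei, with Vha68-1 at 76.1 CPM (65.1 to 88.5) in 86 nuclei. Vha55, the nucleotide-binding subunit B, was at 322 CPM (299 to 347). The stalk subunits that hold the catalytic head still, Vha26 (E) and Vha13 (G), were at 382 CPM and 659 CPM. Of V1 genes, Vha13 was found in the most nuclei, 219. The central stalk, which turns, was represented by Vha36-1 (D) at 135 CPM and Vha14-1 (F) at 229 CPM, while the second D gene, Vha36-3, was at 15.2 CPM (10.5 to 21.3) in 21 nuclei. The regulatory subunits were Vha44 (C) at 235.5 CPM and VhaSFD (H) at 152 CPM.

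In V0, Vha16-1, which encodes the proteolipid c of the proton-carrying rotor ring, had the highest count of the family, 3244 UMIs or 1452 CPM (1403 to 1503), in 286 of 318 nuclei. The ring's second proteolipid gene VhaPPA1-1 was at 183 CPM, and VhaAC39-1, whose subunit d joins the ring to the stalk, at 169 CPM. Subunit a forms the path of protons through the membrane and directs the pump to its compartment. It was the family with the most even use of paralogs. Vha100-2 was at 141 CPM (126 to 157), Vha100-1 at 94.5 CPM (82.2 to 108), Vha100-4 at 30.0 CPM (23.2 to 38.1) and Vha100-5 at 26.4 CPM (20.1 to 34.1). The small membrane subunit e came from VhaM9.7-b at 326 CPM, VhaM9.7-a at 64.5 CPM and VhaM9.7-c at 36.7 CPM. VhaAC45 was at 278.5 CPM. Per the Release 6 plus ISO1 MT gene table, Vha44 overlaps Hmgs (206 UMIs), Vha100-2 overlaps Vti1b (149 UMIs) and VhaM9.7-c overlaps Teh2 (30 UMIs). Vha100-1 overlaps Alg13, listed under its older symbol CG14512 (11 UMIs). The use of strand in counting was not given in the sources used here, so reads of these pairs may not be told apart.

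**Figure D1:**
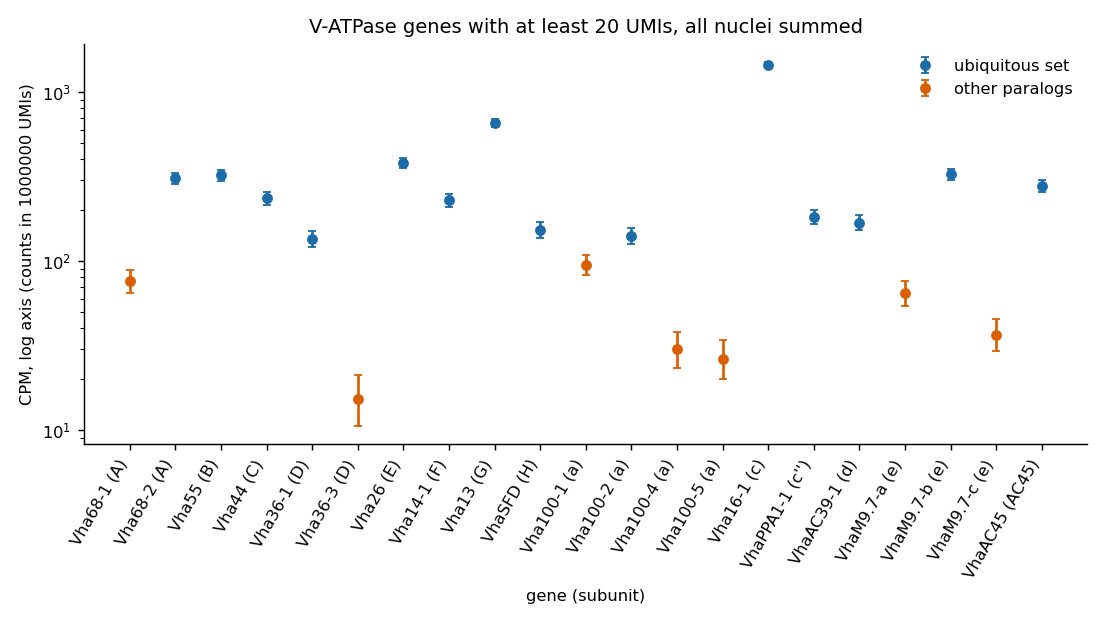
Levels of the 21 V-ATPase genes with at least 20 UMIs, as CPM of all 318 nuclei summed (y axis, log scale) by gene with its subunit letter (x axis). Points are levels and bars exact 95% Poisson intervals, blue for the ubiquitous set and orange for the other paralogs. Vha16-1 stands highest at 1452 CPM and Vha36-3 lowest at 15.2 CPM.

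In the 8 families with several genes, the paralog from the ubiquitous set had the most UMIs. Its share of the family's UMIs was 80.1% (77.3 to 82.7) for Vha68-2, 89.9% (86.1 to 92.9) for Vha36-1, 76.3% (73.5 to 79.0) for VhaM9.7-b and 99.97% for Vha16-1. Vha14-1, VhaPPA1-1 and VhaAC39-1 held every UMI of their families. In the Vha100 family Vha100-2 held 48.3% (44.4 to 52.2), Vha100-1 32.4% (28.8 to 36.1), Vha100-4 10.3% (8.05 to 12.9) and Vha100-5 9.05% (6.96 to 11.5). The authors' treatment of reads shared by near-identical paralogs was not given in the sources used here.

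UMIs of paralogs of a family were often found under the same barcodes. Vha68-1 and Vha68-2 were both found in 60 nuclei, Vha68-1 without Vha68-2 in 26 and Vha68-2 without Vha68-1 in 105. For Vha100-1 and Vha100-2 the counts were 66 with both, 52 with Vha100-1 alone and 48 with Vha100-2 alone. Depth moved with this: nuclei with both Vha68 genes had a median of 14030.5 UMIs, those with Vha68-1 alone 3073 and those with Vha68-2 alone 4557. A nucleus with a UMI of a single paralog is therefore not shown to use that paralog alone, nor one with UMIs of both to express both, given the spread of Mhc above. Detection followed depth for the family's best-captured gene too: Vha16-1 was found in 60.4% of the 48 nuclei under 1000 UMIs and in 100% of the 59 nuclei with 10000 UMIs or more.

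Nuclei differed widely in the share of their RNA that came from V-ATPase genes, and a few nuclei were far above the rest. Among the 270 nuclei with at least 1000 UMIs, the lowest had 8.21 V-ATPase UMIs in 10000, the median 40.8 (quartiles 32.6 and 55.6) and the highest 551. Over 100 in 10000 were found in 12 nuclei, over 150 in 5 and over 200 in 2. After every nucleus was thinned to 1000 UMIs, a median of 3 of the 14 ubiquitous genes was found in a nucleus, with a range of 0 to 13.

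By class, the lowest, median and highest values per nucleus were 9.31, 55.6 and 95.8 in 10000 for the 29 neuron-like nuclei of that depth. They were 18.7, 40.9 and 551 for 44 epidermis-like nuclei, 10.3, 29.8 and 210 for 30 somatic muscle-like nuclei, and 19.4, 36.4 and 58.2 for 6 salivary gland-like nuclei. All classes overlapped. The median was highest in the neuron-like and lowest in the somatic muscle-like class, with quartiles of 36.9 and 70.4 against 22.5 and 39.6. The neuron-like median moved with the clustering, to 38.4 with 3000 variable genes, below the 40.8 of epidermis-like and the 46.1 of the 4 amnioserosa-like nuclei in that setting, so it was not the highest throughout, whereas the somatic muscle-like median stayed between 28.0 and 32.1 in the alternatives run for it.

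**Figure D2:**
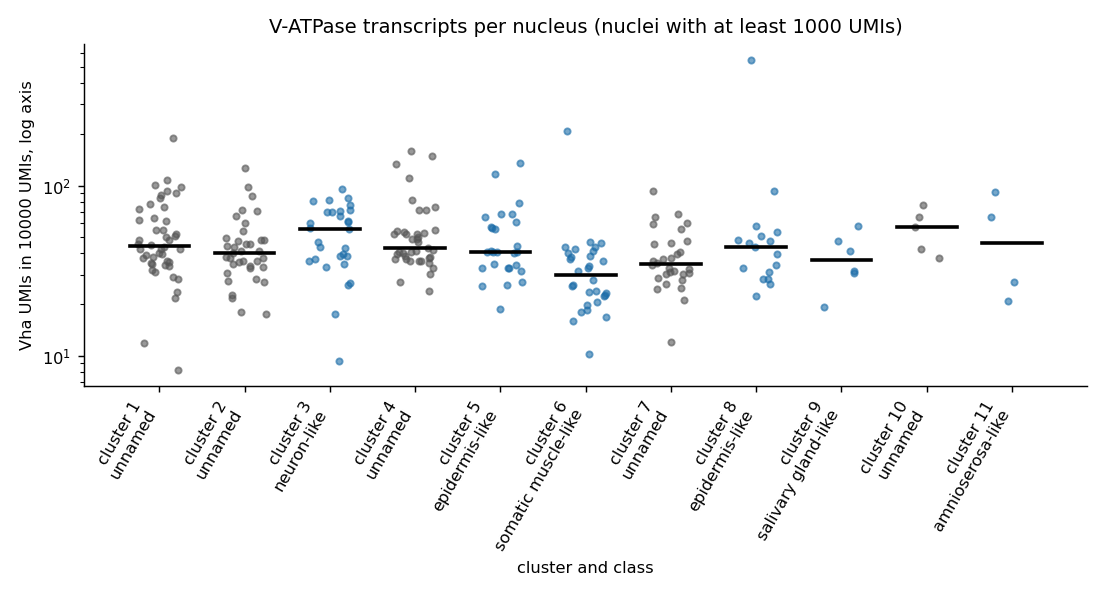
V-ATPase UMIs in 10000 UMIs of each nucleus (y axis, log scale) for the 270 nuclei with at least 1000 UMIs, by cluster and class (x axis). Each point is a nucleus, blue in named classes and grey in unnamed clusters, and the black bar is the cluster's median. Points of cluster 6 (somatic muscle-like) sit lowest around a median of 29.8, and 1 nucleus of cluster 8 stands at 551.

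The 2 nuclei above 200 in 10000 had UMIs of all 14 ubiquitous genes, each above its level in all other nuclei. These nuclei were chosen for their V-ATPase share after the values were seen, so their folds are descriptions of that choice. The first, placed in cluster 8 (epidermis-like), had 556 V-ATPase UMIs of 10084, 5.51% (5.08 to 5.98). All 14 ubiquitous genes were above their level in all other nuclei, from 6.66-fold for VhaPPA1-1 to 17.7-fold for Vha68-2, with a median of 10.5-fold. It had no UMI of Vha68-1, Vha100-1, VhaM9.7-a or VhaM9.7-c. With 0 of 51 Vha68 UMIs, a Vha68-1 share of up to 5.88% (3 counts) is allowed, below the 19.8% (17.2 to 22.6) of the library.

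Vha100-4 made up 15 of this nucleus' 29 Vha100 UMIs, 51.7% (32.5 to 70.6), against 10.3% in the library. In adult flies Vha100-4 is known from copper cells, the acid-secreting cells of the midgut, as is the homeotic gene lab. The nucleus held 3 of the library's 24 lab UMIs and 12 of its 93 UMIs of CAH1, a carbonic anhydrase. Ssk and Tsp2A, which build the smooth septate junctions of gut and tubule epithelia, had 19 and 12 UMIs, 10.2-fold (6.10 to 16.2) and 12.8-fold (6.50 to 22.8) above all other nuclei. RNASEK, whose human counterpart binds the V-ATPase, had 54 UMIs, 8.44-fold (6.31 to 11.1) above. CAH1, Ssk, Tsp2A and RNASEK were named after their values were seen. Of the midgut list 5 of 13 markers were found, 1091 CPM against 454 CPM in all other nuclei, with mex1, alphaTry and betaTry at 0. Of the epidermis list 5 of 21 were found, 793 CPM against 2890 CPM, so its markers go against the class of its cluster.

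The second nucleus, in cluster 6 (somatic muscle-like), had 458 V-ATPase UMIs of 21816, 2.10% (1.91 to 2.30). Again all 14 ubiquitous genes were above all other nuclei, with a median of 3.81-fold. They ranged from 1.92-fold (0.766 to 3.99, from 7 UMIs) for VhaAC39-1 to 6.61-fold for Vha13. This nucleus had no Vha100-4 UMI among 13 of the family, which allows a share of up to 23.1% (3 counts). Markers of Malpighian tubule and hindgut were found for 8 of 13, at 3942 CPM against 967 CPM, with 17 of the library's 33 UMIs of salt, 14 of ZnT35C and 39 of ct. Ssk had 52 UMIs here, 14.0-fold (10.3 to 18.8) above all other nuclei. Markers of somatic muscle were found as well, 20 of 21, with Mhc at 5409 CPM. By doublet score the first nucleus ranked 61 and the second 22 of 318, and neither was called a doublet; the part of a second nucleus in these droplets was not tested otherwise.

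The next 3 nuclei were lower. A nucleus of cluster 1 had 66 of 3451 UMIs from V-ATPase genes, 1.91% (1.48 to 2.43), with 9 of 12 glia markers found at 15358 CPM against 803 CPM, among them nrv2 with 35 UMIs. A nucleus of cluster 4 had 102 of 6404, 1.59% (1.30 to 1.93), with 6 of 13 midgut markers at 3592 CPM against 448 CPM, among them the digestive enzyme gene alphaTry with 14 UMIs. The fifth, also of cluster 4, had 65 of 4326, 1.5% (1.16 to 1.91), and its 3 Vha100 UMIs were all Vha100-4. In the first 4 of these nuclei markers of gut, tubule or glia were above their level in other nuclei, while they lay in 4 different clusters. The lists shown are some of 15, were named after their values were seen, and none is given for the fifth nucleus. How many other nuclei have a raised list was not counted, so no link of cell type to V-ATPase share is drawn.

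**Figure D3:**
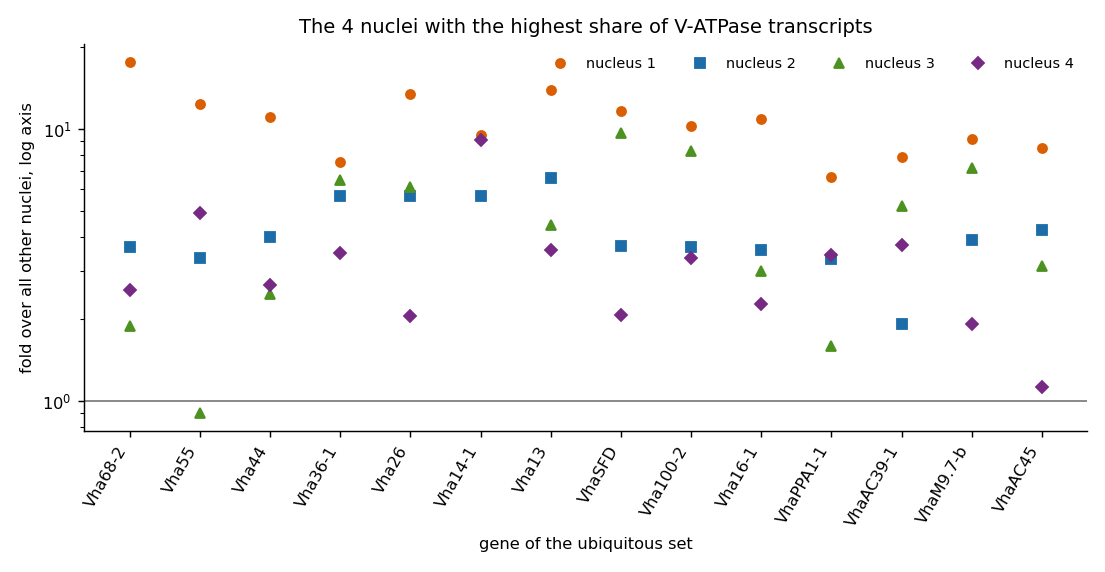
Fold of each ubiquitous V-ATPase gene over all other nuclei (y axis, log scale) in the 4 nuclei with the highest V-ATPase share, by gene (x axis); a gene at 0 UMIs has no point and the grey line marks equal levels. In nucleus 1 (cluster 8) all genes lie between 6.66-fold and 17.7-fold, in nucleus 2 (cluster 6) between 1.92-fold and 6.61-fold.

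These nuclei weighed heavily on the sums of their classes. In epidermis-like nuclei the summed V-ATPase level was 7509 CPM against 4920 CPM in all other nuclei, a fold of 1.53 (1.46 to 1.59), and 17 of 21 genes, with all 14 of the ubiquitous set, were above. Over all 7983 genes with at least 20 UMIs, 32.9% were above. Without the nucleus of 5.51% and the deepest epidermis-like nucleus (76485 UMIs, 891 of them V-ATPase, 1.16%), the level was 4391 CPM, the fold 0.892 (0.838 to 0.95), and 4 of 14 ubiquitous genes were above. The first of these nuclei held 21.6% and the second 34.7% of the V-ATPase UMIs of the class. No V-ATPase gene was at least 2-fold higher or lower in epidermis-like nuclei, against a background over all genes of 4.55% higher and 8.24% lower. All calls here use CPM + 10 and genes with at least 20 UMIs.

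In somatic muscle-like nuclei V-ATPase genes were lower as a group. Their sum was 4341 CPM against 5534 CPM, a fold of 0.784 (0.745 to 0.825). Without the nucleus of 2.10% it was 3397 CPM and the fold 0.614. Of the 14 ubiquitous genes 1, Vha44, was above all other nuclei, where 32.1% of all genes were, and the median log2 fold of the 21 genes was -0.42 against -0.21 over all genes tested. VhaAC39-1 was at 108 CPM against 182 CPM, Vha100-2 at 88.5 CPM against 153 CPM and Vha16-1 at 1080 CPM against 1535 CPM. Vha44 was at 327 CPM against 215 CPM, 1.52-fold (1.24 to 1.86), but 33 of its UMIs were in a single nucleus, without which the fold was 1.20 (0.952 to 1.5). V1 held 55.1% (52.6 to 57.5) of the UMIs of both sectors in this class, above the 49.9% of the library. The nucleus of 2.10% was itself at 59.8% (55.0 to 64.5), and the class share without it was not computed. V1 held 58.8% (50.6 to 66.7) in salivary gland-like nuclei and 45.0% (41.8 to 48.2) in cluster 2.

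In neuron-like nuclei the sum was 6181 CPM against 5241 CPM, a fold of 1.18 (1.11 to 1.25). It did not hold when every nucleus weighed the same, with a fold of 0.975. The deepest nucleus of this class held 31.2% of its UMIs. Of the 21 genes 13 were above all other nuclei, 10 of them ubiquitous, where 42.4% of all genes were, with a median log2 fold of 0.07 against -0.13 over all genes tested. Vha44 was at 374 CPM against 223 CPM, 1.67-fold (1.28 to 2.17), Vha16-1 at 1837 CPM against 1419 CPM, and VhaM9.7-b at 251 CPM against 332 CPM.

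Genes past 2-fold in the neuron-like and somatic muscle-like classes were few. In neuron-like nuclei 2 of 21 genes, Vha68-1 and VhaM9.7-a, were at least 2-fold higher, where 8.49% of all genes were. Vha100-4, at 0 UMIs there, was at least 2-fold lower on that scale, where 11.7% of all genes were. In somatic muscle-like nuclei Vha36-3 was at least 2-fold higher and no gene was lower, against 4.36% and 7.78% of all genes. The shares of members called higher are close to those of all genes. Those called lower, 1 and 0 of 21, are below the shares of all genes. The paralogs are described by their values.

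Vha68-1, the second catalytic A subunit, was at 179 CPM in neuron-like nuclei and 67.2 CPM in all others, a fold of 2.66 (1.75 to 3.93). It made up 32 of 82 Vha68 UMIs there, 39.0% (28.4 to 50.4), against 17.8% (15.1 to 20.6) in all other nuclei. The intervals did not overlap, and Vha68-2 itself was at 279 CPM against 311 CPM. A single nucleus of 29314 UMIs held 11 of the 32 UMIs; without it the share was 30.9% (20.2 to 43.3), an interval that touches that of the others, and the fold 2.09. UMIs were found in 11 of 42 neuron-like nuclei (26.2%) and in 75 of 276 others (27.2%), at median depths of 1288.5 and 3233.5 UMIs. Thinned to 1000 UMIs, the counts were 4 of 29 (13.8%) and 20 of 241 (8.30%). Among larger clusters, the Vha68-1 share was also high in cluster 2, at 32.4% (22.0 to 44.3), and somatic muscle-like nuclei, at 27.1% (19.7 to 35.5), and lowest in cluster 7, at 8.96% (3.36 to 18.5). Cluster 2 was led by br, otk and dan and stayed unnamed, and 1 of its nuclei held 8 of its 24 Vha68-1 UMIs.

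VhaM9.7-a, a paralog of the small membrane subunit e, was the second gene called higher in the neuron-like class. It was at 179 CPM in neuron-like nuclei and 54.5 CPM in all others, a fold of 3.28 (2.14 to 4.89), and made up 32 of 81 VhaM9.7 UMIs, 39.5% (28.8 to 51.0), against 12.8% (10.7 to 15.2). The 32 UMIs came from 13 of 42 nuclei, no more than 6 in a nucleus, and the share was 37.1% (25.9 to 49.5) without the nucleus that held those. Detection was 31.0% of neuron-like and 22.1% of other nuclei, and 20.7% against 5.39% after thinning. Both epidermis-like clusters were at the low end, with 8.91% (4.16 to 16.2) in cluster 5 and 4.05% (0.844 to 11.4) in cluster 8. Cluster 2 came next after the neuron-like nuclei among larger clusters, at 22.0% (14.0 to 31.9). That interval overlaps the 14.4% (12.1 to 16.9) of all nuclei outside cluster 2.

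Vha36-3, a paralog of the rotor stalk subunit D, was concentrated in somatic muscle-like nuclei, which held 58.8% of its UMIs. Of its 34 UMIs, 20 were in 10 of 32 somatic muscle-like nuclei and 14 in 11 of 286 others. The level was 49.2 CPM against 7.66 CPM, a fold of 6.42 (3.08 to 13.7), and it was 5.48 (2.50 to 12.1) without the nucleus with the most, which held 4. In the D family its share was 20 of 65 UMIs, 30.8% (19.9 to 43.5), against 14 of 271, 5.17% (2.85 to 8.52). Detection was 31.3% in somatic muscle-like nuclei and 3.85% in all others, at median depths of 4496 and 2874.5 UMIs, with 1 of 42 in the neuron-like class. After thinning, 1 of 30 and 1 of 240 nuclei had a UMI, too few to compare. No UMI was found in clusters 1, 2 and 7. In cluster 10, with 6 nuclei, 1 nucleus held 3 UMIs, which put the cluster at 91.5 CPM. They were 3 of its 8 UMIs of the D family, 37.5% (8.52 to 75.5).

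Vha100-1, a subunit a paralog known to act in fly neurons, differed less. In neuron-like nuclei it was at 156 CPM against 89.1 CPM, a fold of 1.76 (1.13 to 2.62), and it was found in 15 of 42 nuclei (35.7%) against 103 of 276 (37.3%). Its share of the Vha100 family was 28 of 60 UMIs, 46.7% (33.7 to 60), against 30.9% (27.2 to 34.8), with intervals that overlapped. The deepest neuron-like nucleus held 6 of the 28; without it the share was 59.5% (42.1 to 75.2), clear of that of the others, and the fold 2.0. The share was also high in cluster 7, which stayed unnamed and had 1 gene of the fat body list, apolpp, among its 10 leading genes. It was 55.0% (38.5 to 70.7) there, and its order against the neuron-like class turns on the deepest neuron-like nucleus. It was low in epidermis-like nuclei, at 17.2% (11.1 to 24.9), where Vha100-2 held 62.5% (53.5 to 70.9). Of the paralogs it was also the most evenly spread: 31 nuclei held 50% of its UMIs, and no nucleus more than 8 of 211.

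Vha100-4 was at the other extreme. Its 67 UMIs came from 20 nuclei, and 4 nuclei held over 50% of them, with 15, 11, 7 and 6 UMIs. The first of these was the nucleus of 5.51% described above and the other three lay in cluster 4, the deepest cluster. Cluster 4 held 36 UMIs in 10 of its 41 nuclei, 62.5 CPM against 18.7 CPM (3.34-fold, 2.01 to 5.59); Vha100-4 was its only V-ATPase gene at least 2-fold higher, where 1.06% of all genes were, and no V-ATPase gene was lower, where 3.61% were. In neuron-like nuclei it had 0 of 60 Vha100 UMIs. The gene lies beside Vha100-2 in the Release 6 plus ISO1 MT table. Vha100-5, found in 40 nuclei, had 6 UMIs in a nucleus of cluster 8 and 5 in the cluster 4 nucleus with midgut markers.

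**Figure D4:**
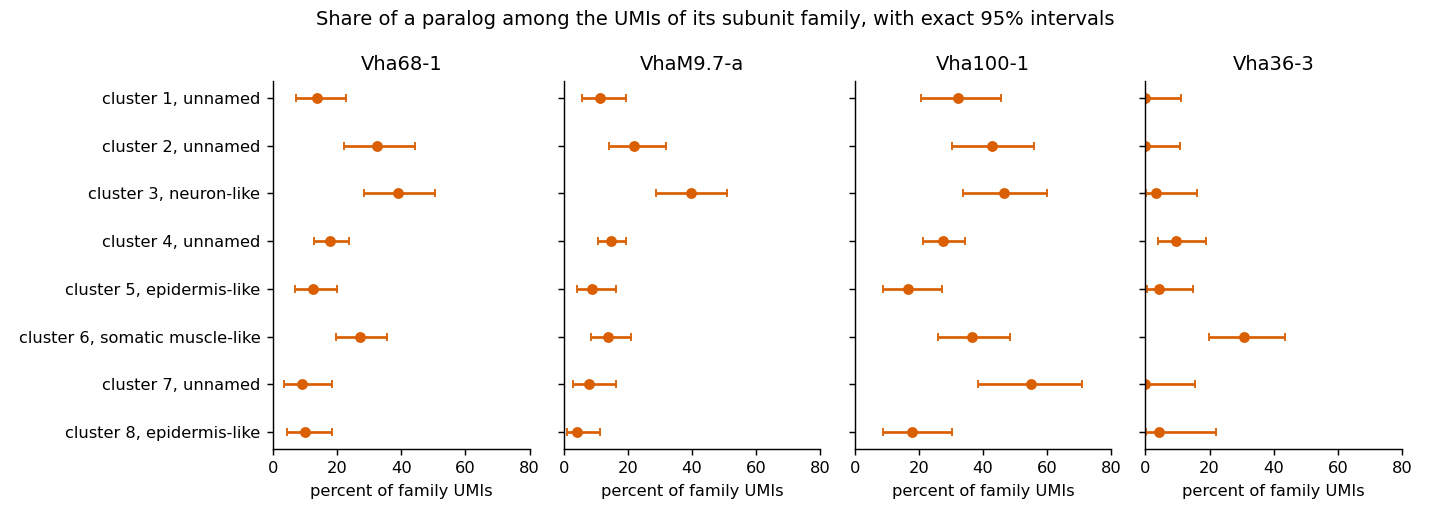
Share of Vha68-1, VhaM9.7-a, Vha100-1 and Vha36-3 in the UMIs of their subunit family (x axis, percent) in clusters 1 to 8 (y axis), with exact 95% binomial intervals as bars. Vha68-1 and VhaM9.7-a reach 39.0% and 39.5% in cluster 3 (neuron-like), Vha36-3 reaches 30.8% in cluster 6 (somatic muscle-like), and Vha100-1 is highest in cluster 7 at 55.0%.

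In cluster 7 the median over all genes tested was low, and that of the ubiquitous V-ATPase genes stood near it, while the summed lysosome level was higher. V-ATPase genes summed to 3874 CPM against 5460 CPM, a fold of 0.710 (0.659 to 0.763), and 0 of the 14 ubiquitous genes were above all other nuclei, where 27.1% of all genes were. Vha26 was at 193 CPM against 401 CPM and Vha100-2 at 74.4 CPM against 148 CPM. The median log2 fold of the ubiquitous genes was -0.43, near the -0.47 over all genes tested. The medians were thus alike, while no ubiquitous gene was above. Whether the drop goes beyond that of other genes was not tested. Of the 21 genes 5 were at least 2-fold lower and none higher, against 23.4% and 7.74% of all genes. Lysosome and late endosome genes, by contrast, summed to 5348 CPM against 2169 CPM, a fold of 2.47 (2.30 to 2.64), with 9 of 21 at least 2-fold higher and 2 lower. The V-ATPase assembly and regulation genes summed to 1855 CPM against 1087 CPM, with 3 of 12 higher and 2 lower.

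**Figure D5:**
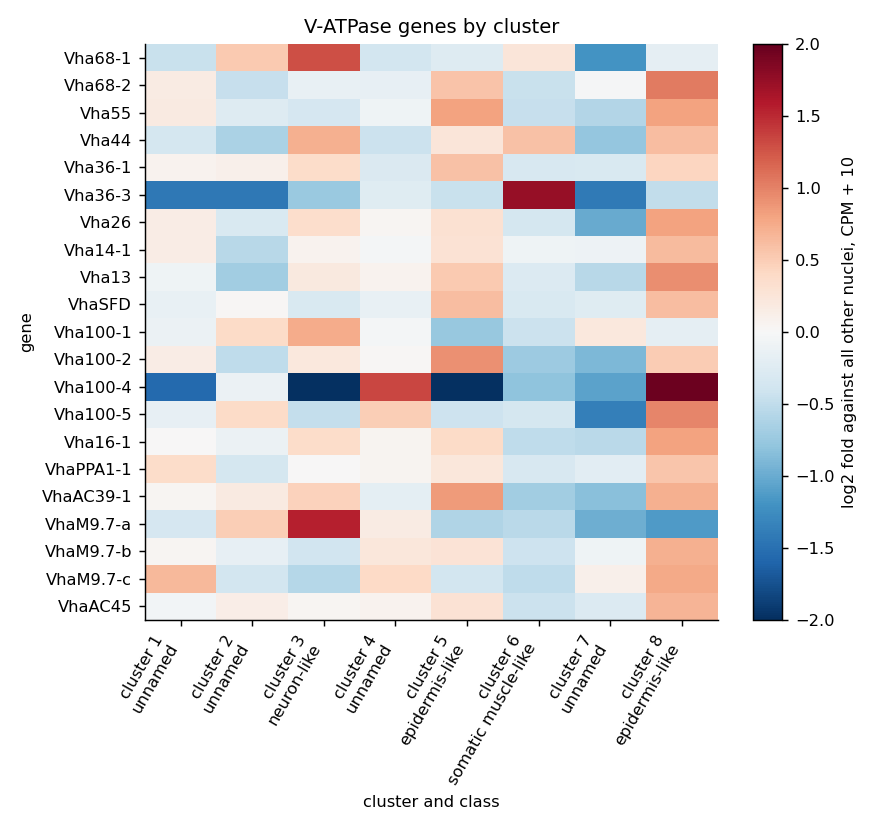
Log2 fold of the 21 V-ATPase genes (y axis) in clusters 1 to 8 against all other nuclei (x axis), on CPM + 10; red is higher, blue lower, and colours end at 2 and -2. VhaM9.7-a and Vha68-1 are red in cluster 3 (neuron-like), Vha36-3 in cluster 6 (somatic muscle-like), and cluster 7 is blue or near white for all 14 ubiquitous genes.

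In the remaining clusters few V-ATPase genes passed 2-fold, and those that did were the other paralogs or rested on few nuclei. Cluster 1 had none higher and 2 lower, Vha36-3 and Vha100-4, against 6.23% and 13.5% of all genes. Cluster 2 had none higher and 1 lower, Vha36-3, against 2.46% and 8.03%. Vha36-3 had 0 UMIs in clusters 1 and 2, and its fold intervals reach 1.06 and 1.04, so a lower level is not shown. Of the epidermis-like clusters, cluster 5 had none higher and 1 lower, Vha100-4, against 4.05% and 11.4%. Cluster 8 had 2 higher, Vha68-2 and Vha100-4, and 1 lower, VhaM9.7-a, against 4.57% and 19.5%; all 15 of its Vha100-4 UMIs were in the nucleus of 5.51%, and without that nucleus its summed V-ATPase level went from 8712 CPM to 4473 CPM. Cluster 10, with 6 nuclei, had 2 higher, Vha36-3 and Vha100-2, and 2 lower, Vha100-4 and VhaM9.7-c, against 9.45% and 36.3%. Both lower genes had 0 UMIs there, with fold intervals that reach 3.80 and 3.09.

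The 2 smallest classes were too shallow for single genes. In salivary gland-like nuclei (49436 UMIs, of which 1 nucleus held 73.2%) the sum was 3277 CPM and the fold 0.611 (0.520 to 0.714), and 10 of 21 genes were at least 2-fold lower and none higher, against 45.4% and 5.12% of all genes. In amnioserosa-like nuclei (6527 UMIs) the fold was 0.980 (0.678 to 1.37), with 3 of 21 genes higher and 9 lower, against 14.6% and 70.5% of all genes.

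Genes that work with the pump in neurons were set beside it. All 4 measured vesicular transmitter transporters, which use the proton gradient to fill synaptic vesicles, were at least 2-fold higher in neuron-like nuclei, against 8.49% of all genes: Vmat 9.80-fold, VAChT 7.41-fold, VGlut 5.81-fold and VGAT 5.52-fold. VAChT and VGlut were also markers that named the class, so they are no independent check. Of 12 V-ATPase assembly and regulation genes none passed 2-fold. Rbcn-3A, part of the complex that reassembles the pump, was at 128 CPM against 64.7 CPM (1.98-fold, 1.22 to 3.10), HDAC4 at 1.59-fold, CG5969 at 0.627-fold and RagC-D at 0.441-fold (0.0891 to 1.34, from 3 UMIs), and ATP6AP2 was at 251 CPM against 202 CPM. Of 21 lysosome and late endosome genes none was at least 2-fold higher and 3 were lower, close to the 11.7% of all genes that were lower. The 3 were cathD, an aspartic protease gene, at 61.4 CPM against 185 CPM (0.331-fold, 0.164 to 0.599), Hexo2 at 1 UMI against 55 in the other nuclei and Plekhm1 at 0 against 28, while Npc1a was at 1.88-fold and Vps39 at 1.58-fold. Of 7 chloride and proton exchangers none was higher and 1 lower, with Nha1 at 2.39-fold before the CPM offset, Nhe3 at 1.95-fold, Nhe2 at 0.717-fold and ClC-a at 0 UMIs against 40 in the other nuclei.

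Over the 11 clusters, the 5 genes most like Vha100-1 among 1967 genes with at least 200 UMIs, by Pearson's r of log2(CPM + 10), were vsg (0.89), CG17514 (0.89), spen (0.88), CG45263 (0.88) and CG31224 (0.87). Those most like the summed ubiquitous set were UQCR-Q (0.87), Ance (0.84), eEF1delta (0.84), bowl (0.83) and Myo10A (0.83). The points share 1 library and differ in depth, so r is a description. All 5 genes named for Vha100-1 were highest in cluster 11, where Vha100-1 had 3 UMIs; over the 8 clusters with the most UMIs their r fell to between 0.36 and 0.70. Those named for the ubiquitous set were highest in cluster 8, which holds the nucleus of 5.51%. Their r was between 0.82 and 0.85 over the same 8 clusters. Cluster 8 is among these, so the weight of that nucleus on r was not tested.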

How the data were processed

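The authors deposited unnormalized UMI counts per gene and nucleus for 1 RNA library; build dm3 is named per the submitters' processing notes. The aligner, the counter, barcode filters and the treatment of introns were not given in the sources used here. All 318 nuclei were kept. Counts were scaled to 10000 UMIs, log-transformed and clustered with scanpy 1.11.5 and igraph 0.11.9 (also used were pandas 2.3.3 for tables, scipy 1.17.1 for intervals, numpy 2.4.6, matplotlib 3.10.9 and python 3.11.15): genes in at least 3 nuclei, 2000 variable genes, 20 components, 10 neighbours, Leiden resolution 1, seed 0. The 81 V-ATPase and related-list genes that were not markers were left out of the variable genes. Of 15 marker lists, the one with the most members over 2-fold higher (at least 3, each with 5 UMIs or more) named a cluster; names for clusters 1 and 7 (germ cell and fat body) were withheld after their values were seen. List symbols matched exactly for 228 entries, by older symbols for 8 and not for 8.

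Counts were summed per class and compared as CPM with exact Poisson, binomial and conditional binomial intervals; no test was run. Calls are 2-fold on CPM + 10 among genes with at least 20 UMIs. Named were all V-ATPase genes, of each related list the 2 highest and 2 lowest by fold in neuron-like nuclei, and the 5 most alike genes; other names were chosen after their values were seen. Doublet scores (Scrublet) called 7 nuclei, which were kept. The interval code was tested on simulated data. Alternatives were thinning to 1000 UMIs per nucleus (48 shallower nuclei left out), equal weights, other clusterings, offsets and minimums, and nuclei left out, some chosen after the data were seen. Members and lists were chosen with earlier results of these data known. No sequence is printed.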

Additional observations from a re-analysis of the deposited data

How the results depend on the processing

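Over 27 results and 16 alternative settings, 175 of 232 values kept their place, 52 moved and 5 turned direction. In neuron-like nuclei the summed fold (1.18) was 0.975 and that of the ubiquitous set (1.14) 0.941 with every nucleus weighed the same, 1.07 and 1.0 thinned to 1000 UMIs, 1.06 and 1.03 at resolution 0.6, 1.05 and 1.02 with 3000 variable genes, 1.28 and 1.25 without the 2 nuclei of highest V-ATPase share, and the latter 1.05 without the deepest nucleus of each cluster. In epidermis-like nuclei both (1.53 and 1.58) were 0.892 and 0.901 without the deepest nucleus and that of highest V-ATPase share, 1.28 and 1.31 without the deepest of each cluster, 1.20 and 1.22 thinned, 1.14 and 1.15 with equal weights, 1.26 and 1.28 at resolution 0.6, 1.46 and 1.49 at 1.5, 1.19 and 1.24 with 3000 variable genes, and 1.28 and 1.33 without the 2 nuclei of highest share. In somatic muscle-like nuclei both (0.784 and 0.777) were 0.879 and 0.875 without the deepest, 0.687 and 0.673 with equal weights, 0.853 and 0.846 without the 5% highest doublet scores, 0.646 and 0.627 without the 2 nuclei, and the first 0.727 thinned. In salivary gland-like nuclei they (0.611 and 0.629) were 0.738 and 0.747 without the deepest and 0.730 and 0.740 with equal weights. The V-ATPase share of the library (0.532%) was 0.521% without the deepest, 0.489% thinned, 0.505% with equal weights, 0.551% without the 5% highest doublet scores and 0.493% without the 2 nuclei. The Vha100-1 share was 60.5% in neuron-like and 35.9% in other nuclei with equal weights, and 47.5% in others when thinned. The Vha68-1 share was 52% in neuron-like nuclei without the deepest and 25.6% in others when thinned; that of VhaM9.7-a was 52.8% without the deepest and 15.5% in others with equal weights. Genes past 2-fold in neuron-like nuclei numbered 3, 6 when thinned and 1 on CPM + 50. Vha44 in somatic muscle-like nuclei was 0.552-fold when thinned. The causes were not tested beyond what each left-out nucleus shows.

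The shares of Vha68-1 and VhaM9.7-a in neuron-like and of Vha36-3 in somatic muscle-like nuclei were above those of all other nuclei in each alternative run for them. Folds of unnamed clusters were not recomputed, and no amnioserosa-like class arose at resolutions 0.6 and 1.5. No paired analysis was possible because there was 1 RNA library and no test. Depth limits single nuclei: at 1000 UMIs a gene of 76.1 CPM gives a UMI in few nuclei, and most paralog shares rest on under 100 family UMIs.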
